A study of Homo sapiens with 27 samples.

Results

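miR-136 is a microRNA (miRNA) gene on chromosome 14, and the 2 probes described here read the 2 arms of its hairpin. They are hsa-miR-136* (the star strand, named miR-136-3p in current tables) and hsa-miR-136 (named miR-136-5p), written below without the species prefix. They were chosen by name, as the mature probes of this gene, from 774 miRNA probes (637 mature and 137 precursor), and both were measured on all 27 arrays. The gene was picked because of the signals of miR-136* between POL6326 and SDF-1α, so every value of that contrast is given as a description, with no test.

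The RNA came from OCI-AML3, a human acute myeloid leukaemia cell line, in 9 groups of 3 arrays. POL6326, a CXCR4 antagonist, was given at 250 nM and SDF-1α, the chemokine ligand of CXCR4, at 100 ng/mL, and cells were taken at 1, 2, 4 and 8 h of either. The control cells were untreated and were sampled only at 0 h, and a difference from them mixes treatment with time in culture. Nothing in the labels tells whether a group's 3 arrays are separate cultures, so p-values measure the spread between these arrays, which may be technical. Whole cultures of 1 cell line were measured, so a change in every cell and a change in some of the cells cannot be told apart.

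A miRNA hairpin is cut into a short duplex, and either strand can be loaded into an Argonaute protein, where bases 2 to 8, the seed, pair with target mRNAs. The strand that accumulates less was historically given the star. The miR-136 gene belongs to the imprinted DLK1-DIO3 domain, whose miRNAs are made from the maternal chromosome. It lies on the strand opposite to RTL1, a paternally expressed retrotransposon-derived gene, and in mouse miR-136 pairs perfectly with the Rtl1 transcript and directs its cleavage. In the RefSeq annotation MIR136 lies inside the span of RTL1 with MIR431, MIR433, MIR127 and MIR432.

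The sequences of the 2 arms are shown because the arms gave different signals and share no seed. Both are RefSeq sequences of the plus strand of chromosome 14 (GRCh38.p14), matched to the probes by name, and the capitals mark the seed.
miR-136*: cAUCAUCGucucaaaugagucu
miR-136: aCUCCAUUuguuuugaugaugga
The hairpin, with both arms in capitals, shows that they come from 1 precursor of 82 bases, miR-136 from bases 15 to 37 and miR-136* from bases 49 to 70.
MIR136 hairpin: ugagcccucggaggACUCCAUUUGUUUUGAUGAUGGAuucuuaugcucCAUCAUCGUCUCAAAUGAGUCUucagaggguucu
Among 2370 mature miRNA names in the RefSeq table, 0 others had the seed of miR-136* and 0 others had that of miR-136. The longest run of identical bases shared with any other mature miRNA was 8 for miR-136* (with miR-372-5p) and 9 for miR-136. No probe for the miR-136 precursor was among the 137 precursor probes.

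All values below are log2 signals as deposited. On each array many dim probes share 1 tied value (the floor, at 4.27 to 4.43), and its lowest value above the floor is its detection limit. Some values lie below the floor (miR-432 reached 3.27), and a probe called at the floor is one not above it. Between 210 and 593 of 774 miRNA probes lay above the floor per array, the fewest after 1 h of SDF-1α (210 to 241) and the most after 4 h of POL6326 (482 to 593). Control arrays spanned 257 to 560. Both members were above the floor on 27 of 27 arrays. miR-136* exceeded the array's detection limit by at least 1.11 and miR-136 by at least 1.82, so the floor sets neither member's values. The smallest margins of both fell on the SDF-1α 1 h arrays (1.11 to 2.69 for miR-136* and 1.82 to 2.28 for miR-136). Their limits were 6.88 to 7.42, against 5.09 to 5.33 on the POL6326 1 h arrays. Of the blood-cell markers, miR-223 (13.88 to 15.46), miR-155 and miR-142-5p were above the floor on all arrays, while miR-142-3p was above it on 4 of 27. Of the markers linked to HOX genes, miR-10a was above the floor on all 27 arrays and miR-196b on 8. Of the markers of other tissues, miR-122 (liver), miR-206 (muscle) and miR-205 (epithelium) were above the floor on all 27 arrays too (medians 8.07, 6.91 and 8.38), and miR-124, miR-1 and miR-200c on 19, 9 and 3.

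miR-136* was higher on the POL6326 arrays than on the SDF-1α arrays at each of the 4 times. Its own control mean lay between those of the treatments at 1 and 2 h, and at 8 h only with SDF-1α 8 h array 3 included. After POL6326 its 3 arrays read 10.77, 11.38 and 11.78 (1 h), then 11.71, 11.97 and 11.84 (2 h), 11.48, 12.17 and 12.70 (4 h), and finally 12.76, 12.41 and 12.46 (8 h). After SDF-1α they read 9.88, 8.16 and 8.53 (1 h), then 8.91, 9.18 and 9.30 (2 h), 10.71, 10.80 and 11.16 (4 h), and finally 10.61, 10.46 and 8.74 (8 h). The control arrays read 10.65, 10.86 and 10.04. Within each time the 3 POL6326 arrays all lay above the 3 SDF-1α arrays. The gap between the lowest POL6326 array and the highest SDF-1α array was 0.90, 2.42, 0.32 and 1.80 in time order. Of 774 miRNA probes, 7.36%, 7.24%, 12.4% and 6.59% had all 3 POL6326 arrays above the floor and above all 3 SDF-1α arrays, by any margin, at 1, 2, 4 and 8 h, and 0.517% (4 probes) had this at all 4 times. Those 4 probes were miR-136*, miR-451, miR-138 and a probe of miR-138-1* marked Plus/Minus. Across times the treatments met at 1 point: POL6326 1 h array 1 (10.77) lay below SDF-1α 4 h arrays 2 and 3, and the other 11 POL6326 arrays exceeded all 12 SDF-1α arrays.

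**Figure D1:**
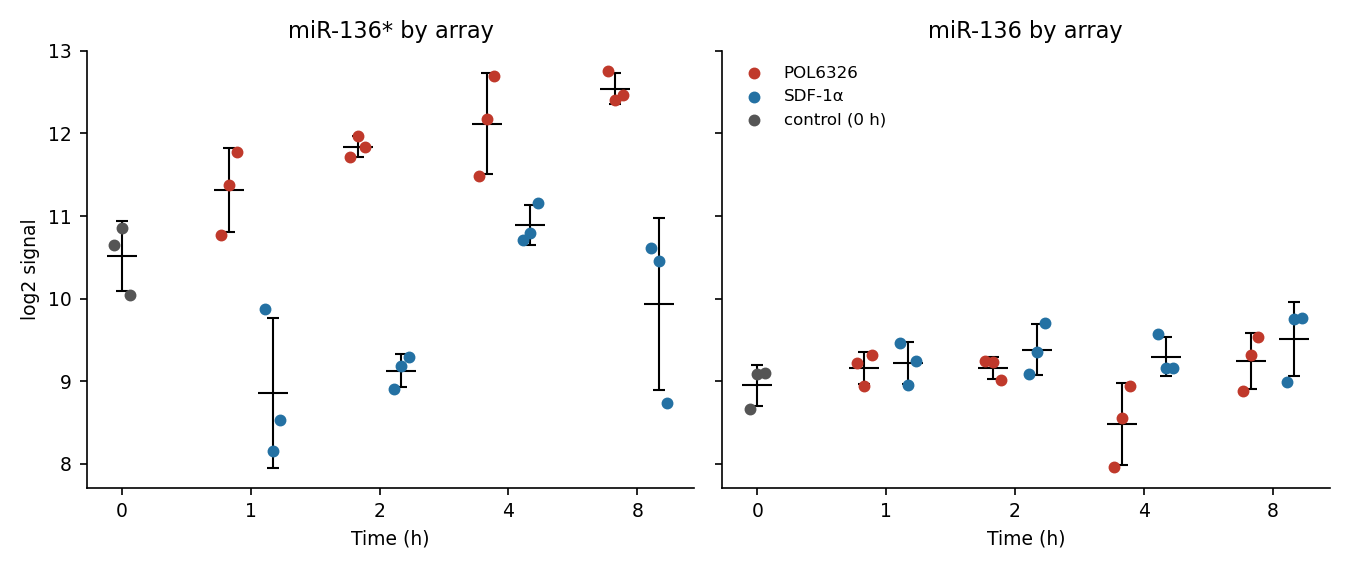
Log2 signal (y axis) of miR-136* (left) and miR-136 (right) on each array against time in h (x axis, equal steps). Points are arrays, and the horizontal lines and bars are the mean ± SD of 3 arrays. The miR-136* points of POL6326 lie above those of SDF-1α at every time, by 0.32 or more, while the miR-136 points of both treatments overlap at 1, 2 and 8 h and separate at 4 h.

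The arm without the star, miR-136, stayed in a narrow band. After POL6326 its 3 arrays read 9.22, 8.94 and 9.32 (1 h), then 9.25, 9.23 and 9.01 (2 h), 7.96, 8.55 and 8.94 (4 h), and finally 8.88, 9.32 and 9.54 (8 h). After SDF-1α they read 9.46, 8.96 and 9.24 (1 h), then 9.09, 9.35 and 9.71 (2 h), 9.57, 9.16 and 9.16 (4 h), and finally 8.99, 9.76 and 9.77 (8 h). The control arrays read 8.66, 9.09 and 9.10. The treatments overlapped at 1, 2 and 8 h, and at 4 h all 3 POL6326 arrays lay below all 3 SDF-1α arrays, as did 15.6% of all miRNA probes at that time. Over all 27 arrays miR-136 spanned 7.96 to 9.77 and miR-136* spanned 8.16 to 12.76.

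As group means, miR-136* ran in the order POL6326 8 h (12.54 ± 0.19), 4 h (12.12 ± 0.61), 2 h (11.84 ± 0.13) and 1 h (11.31 ± 0.51), then SDF-1α 4 h (10.89 ± 0.24), control (10.51 ± 0.42), SDF-1α 8 h (9.94 ± 1.04), 2 h (9.13 ± 0.20) and 1 h (8.86 ± 0.90; SD, n = 3 each). The arrays of every pair of neighbours in that order overlapped. The wide SD at SDF-1α 8 h came from array 3 (8.74), which lay 1.72 or more below the other two. For miR-136 the means ran between 9.51 ± 0.45 at SDF-1α 8 h and 8.49 ± 0.49 at POL6326 4 h, with control at 8.95 ± 0.25 (SD, n = 3 each), and all neighbours overlapped.

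Over the 4 times miR-136* averaged 11.95 ± 0.59 with POL6326 and 9.70 ± 1.02 with SDF-1α (SD, n = 12 each), a fitted log2 difference of 2.25 (SE 0.22, 4.75-fold). By time the log2 differences, POL6326 minus SDF-1α, were 2.45, 2.71, 1.23 and 2.60 at 1, 2, 4 and 8 h (SE 0.45 each). The smallest of these, at 4 h, coincides with the highest SDF-1α mean rather than with a low POL6326 mean. miR-136 averaged 9.02 ± 0.42 with POL6326 and 9.35 ± 0.30 with SDF-1α (SD, n = 12 each), a log2 difference of -0.34 (SE 0.13). At 2, 4 and 8 h it was -0.22, -0.81 and -0.26 (SE 0.25 each). At 1 h it was -0.06, which turned to 0.01 with the median of each array set to 0 and ran from -0.19 to 0.06 with 1 array left out. With 1 array left out the 2 h value ran from -0.36 to -0.05 (without SDF-1α 2 h array 1 and without array 3), and the 8 h value from -0.52 (without SDF-1α 8 h array 1) to -0.07 (without POL6326 8 h array 1). Setting each median to 0 moves the median of all probes by -0.14 in this contrast. With it 44 probes passed higher and 266 lower, against 42 and 34 on the deposited scale. On most arrays that median is the floor itself. On all POL6326 4 h and 8 h arrays it lay above the floor (4.53 to 4.77). The same held for control array 1 and SDF-1α 8 h array 1. This setting thus lines up tied floor values with signals above the floor. Without SDF-1α 8 h array 3 the 8 h difference of miR-136* was 2.01.

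**Figure D2:**
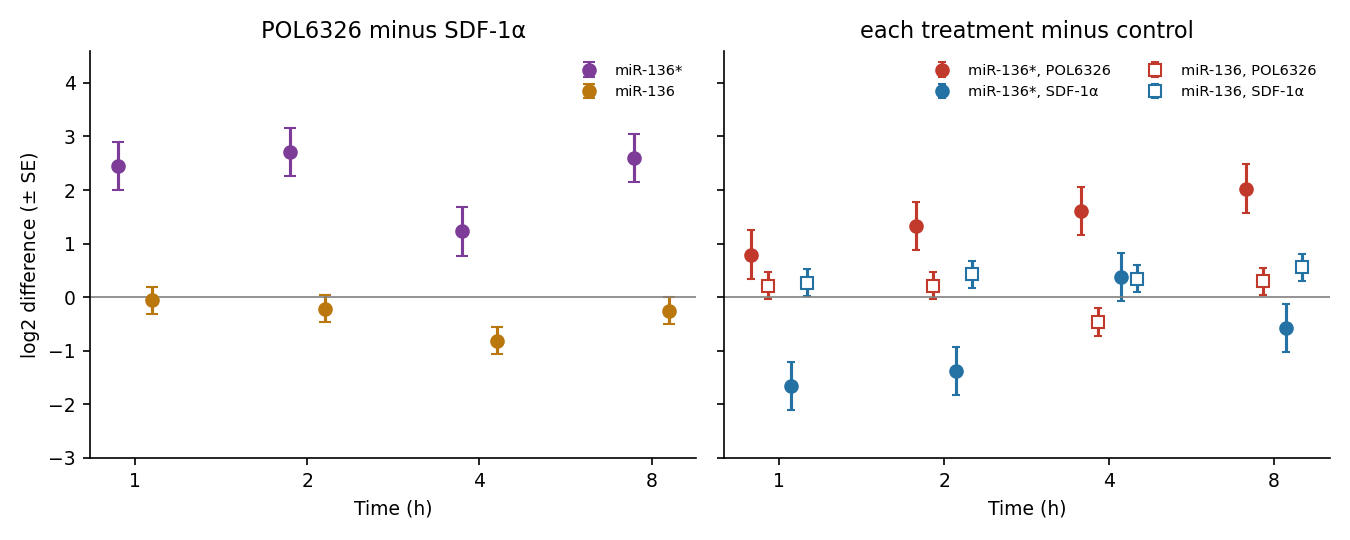
Fitted log2 differences ± SE (y axis) at 1, 2, 4 and 8 h (x axis, equal steps). The left panel gives POL6326 minus SDF-1α for both arms, with miR-136* between 1.23 and 2.71 and miR-136 between -0.81 and -0.06. The right panel gives each treatment minus the same 3 control arrays, which the 2 treatments share. In the right panel filled circles are miR-136* and open squares miR-136.

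Set against the control, which both treatments share, miR-136* was 1.44 (SE 0.36) with POL6326 and -0.81 (SE 0.36) with SDF-1α over the 4 times. These values share arrays with the contrast that picked the gene and are given without a test. Of the 12 POL6326 arrays, 11 exceeded the highest control array (10.86) and 1 lay within the control range. Of the 12 SDF-1α arrays, 7 lay below the lowest control array (10.04), 4 within the range and 1 above it. By time, the log2 differences from control with POL6326 were 0.80, 1.33, 1.60 and 2.03 at 1, 2, 4 and 8 h, and with SDF-1α they were -1.66, -1.39, 0.38 and -0.58 (SE 0.45 each). Without SDF-1α 8 h array 3 the last of these was 0.02, so its direction rests on that array, and the 4 h value was 0.14 without control array 3. With POL6326 the arrays lay wholly above control at 2, 4 and 8 h, as did 8.27%, 9.95% and 9.82% of all probes. With SDF-1α they lay wholly below control at 1 and 2 h, as did 8.01% and 4.91%. Against control, miR-136 was 0.07 (SE 0.20) with POL6326, which turned to -0.02 with array medians set to 0 and to -0.08 without control array 1, and 0.40 (SE 0.20) with SDF-1α. Its SDF-1α 4 h arrays lay wholly above control, as did 5.94% of all probes, and the other 7 treated groups overlapped it.

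Tests were made on contrasts that do not use the difference between the treatment means. The mean of all 8 treated groups minus control was 0.31 (SE 0.34, adjusted p = 0.952) for miR-136* and 0.23 (SE 0.19, adjusted p = 0.766) for miR-136 by limma's moderated test. Neither member passed the threshold of an adjusted p of 0.05, which 3.10% of 774 probes passed. Neither passed an unadjusted p of 0.05, which 106 of 774 probes passed. With 1 array left out, miR-136* ran from 0.08 (without control array 3) to 0.49 (without control array 2), and miR-136 from 0.09 (without control array 1) to 0.31 (without control array 3).

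miR-136* changed over time within SDF-1α (limma's moderated F-test over 4 times, adjusted p = 0.0257). Its SDF-1α means were 8.86, 9.13, 10.89 and 9.94 in time order. The same arrays enter the differences from POL6326 at single times, so this call is not wholly separate from the choice of the gene. Of all probes, 5.68% passed this test, and miR-136 did not (adjusted p = 0.882). The number of probes above the floor also differed between these times, with 210 to 241 per array after 1 h, 317 to 332 after 2 h, at least 362 after 4 h and 317 to 489 after 8 h. With that number in the model the adjusted p of miR-136* was 0.0856. Since each group has its own mean, that fit takes its slope only from the spread of the number within groups. The spread was widest in control (SD 163), SDF-1α 8 h (SD 88.6) and POL6326 4 h (SD 59.8), against 7.64 to 16.5 elsewhere (n = 3 each). A slope from few arrays is thus carried across the gaps between groups, here and in every fit below with that number. The call also ended without any 1 of the 3 SDF-1α 4 h arrays or without SDF-1α 1 h array 3 (adjusted p between 0.0577 and 0.0850).

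Within POL6326 the miR-136* means stood at 11.31, 11.84, 12.12 and 12.54 at 1, 2, 4 and 8 h, and the F-test did not pass (adjusted p = 0.211, with 13.6% of probes called). For miR-136 within POL6326 the adjusted p was 0.120 (unadjusted p = 0.0241), with 4 h the lowest mean. In this F-test 207 of 774 probes had an unadjusted p under 0.05. With each array's median set to 0, miR-136 passed this test (adjusted p = 0.0181), as it did without POL6326 4 h array 3 (0.0490). No test of whether the difference between the treatments varied with time is given for the members, since they were picked on that difference.

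Between successive times, 0 of 12 member tests passed by limma's moderated test (2 members, 6 steps), and 4 of 12 had an unadjusted p under 0.05. Of all probes, 0.00%, 11.4% and 2.33% passed in the POL6326 steps to 2, 4 and 8 h, and 2.20%, 0.388% and 1.29% in those of SDF-1α. An unadjusted p under 0.05 was common: 55, 277 and 131 of 774 probes had it in the POL6326 steps. In the SDF-1α steps 196, 70 and 89 had it. The 4 h minus 2 h step of miR-136* in SDF-1α was 1.76 (SE 0.45, adjusted p = 0.124). Without SDF-1α 8 h array 3, where its SE was 0.37, it passed (adjusted p = 0.0212). Its 8 h minus 4 h step in SDF-1α was -0.96 (SE 0.45, adjusted p = 0.422), and -0.36 without SDF-1α 8 h array 3. miR-136 differed by -0.68 (SE 0.25, adjusted p = 0.0847) from 2 h to 4 h of POL6326, and by 0.76 (SE 0.25, adjusted p = 0.130) from 4 h to 8 h. The first of these passed with the median of each array set to 0 (-0.94, adjusted p = 0.0101) and without POL6326 4 h array 3 (-0.91, adjusted p = 0.0324). With each array's count of above-floor probes in the model it was -0.06 (adjusted p = 1.00), and the adjusted p of miR-136 over time within POL6326 was 0.654.

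The number of above-floor probes on an array moved with miR-136*, and over all arrays it moved the opposite way with miR-136. The part of that number in the results was not tested beyond the covariate fits, whose slope comes only from spread within groups. Over 27 arrays Pearson's r with it was 0.52 for miR-136* (Spearman's rho 0.59) and -0.61 for miR-136 (rho -0.44), described without a test, since arrays of 1 group share their treatment. Without the 2 arrays farthest from the median number these were 0.64 and -0.33. Within SDF-1α r was 0.68 for miR-136* and -0.09 for miR-136 (n = 12), and 0.62 and 0.18 without 2 such arrays. Within POL6326 it was 0.31 and -0.80 (n = 12), and without the 2 arrays farthest from the median number these became 0.81 and -0.29, so the relation of miR-136 within POL6326 rests on 2 arrays. At 2 h both treatments had like numbers (318 to 333 with POL6326 and 317 to 332 with SDF-1α), and there the miR-136* difference was 2.71. With the number in the model, the miR-136* difference over 4 times was 2.14 (SE 0.26) and that of miR-136 was -0.13 (SE 0.12).

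**Figure D3:**
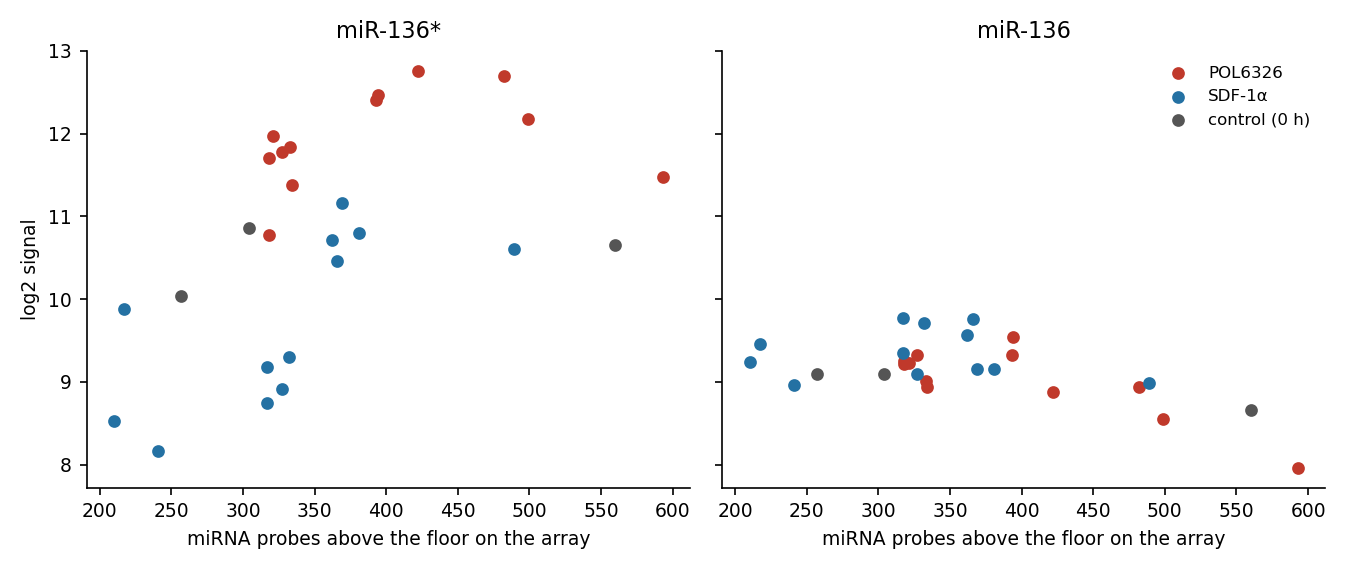
Log2 signal (y axis) of miR-136* (left) and miR-136 (right) against the number of miRNA probes above the floor on the same array (x axis), 1 point per array. At 317 to 333 probes, where all 2 h arrays lie, the 2 h miR-136* points of POL6326 are between 11.71 and 11.97 and those of SDF-1α between 8.91 and 9.30. The lowest miR-136 value, 7.96, is on the array with 593 probes above the floor.

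The arms of miR-136 differed from each other in how they stood between the treatments, which is a comparison of differences and not of levels. The log2 difference of miR-136* exceeded that of miR-136 by 2.58. Of 153 hairpins with a mature probe for each arm, 11 had both probes above the floor on all arrays. In the other 10 of these the gap between the arms was at most 0.93, with a median of 0.23. Among the 142 hairpins with an arm at the floor on some array, 13 had a gap above 0.93 and 0 had one above 2.58. The gaps reached 1.87 in size there (let-7a, with let-7a* above the floor on 2 arrays), and miR-181c, with its arms above the floor on 27 and 25 arrays, had -1.46. The widest of the 10 other pairs with both probes above the floor on all arrays were miR-92b, miR-593 and miR-371. miR-92b had -0.59 for the star probe and 0.34 for the other arm, and miR-593 had 0.72 and -0.19. miR-371 had 0.00 for the 3p probe and -0.41 for the 5p probe. Since miR-136* was picked on this contrast, its place among these pairs is a description. Across the 27 arrays the 2 arms had an r of -0.29 (rho -0.31), and within POL6326 0.12 and within SDF-1α 0.04 (n = 12 each).

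**Figure D4:**
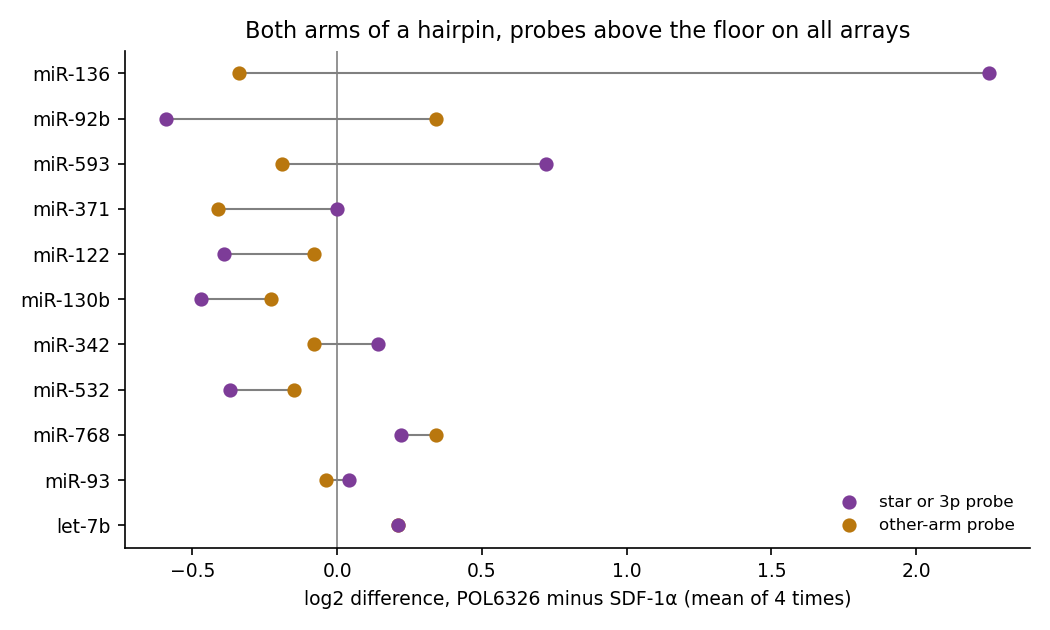
Log2 difference, POL6326 minus SDF-1α over 4 times (x axis), of the 2 arm probes of the 11 hairpins with both probes above the floor on all arrays (y axis). Purple is the star or 3p probe and orange the other arm, and for let-7b the 2 points coincide. The line for miR-136 spans -0.34 to 2.25, and the next widest, for miR-92b, spans -0.59 to 0.34.

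A list of genes near MIR136 ran from MIR493 to MIR432 on 1 side and held only MIR370 on the other. MIR379, MIR411, MIR299 and MIR380, which follow MIR370, have probes on the array but were not in this list. They are in the whole-domain list below. The list had 13 probes on the array, for miR-493, miR-337, miR-431, miR-433, miR-127, miR-432 and miR-370, and few of them were above the floor throughout. Above the floor on all arrays were 3 probes (miR-370 and the precursors of miR-431 and miR-433), and at the floor on all arrays was 1 (miR-432). For the mean difference of POL6326 minus SDF-1α, 1 of 13 passed higher and 0 lower, against 5.43% and 4.39% of all probes, with a median of -0.01 against -0.03 for all probes. The 1 was miR-493, at 4.76 ± 0.70 with POL6326 and 4.37 ± 0.10 with SDF-1α (SD, n = 12 each), and differed by 0.38 on the log2 scale (SE 0.12, adjusted p = 0.0412). It was above the floor on 4 of 12 POL6326 and 1 of 12 SDF-1α arrays, which makes the size of its difference a matter of the floor, and its call ended when any 1 of 20 of the 27 arrays was left out. miR-370 stood at 9.80 ± 0.36 with POL6326 and 9.79 ± 0.29 with SDF-1α (SD, n = 12 each), and differed by 0.02 on the log2 scale (SE 0.11, adjusted p = 0.941). The miR-431 precursor differed by -0.18 (SE 0.06, adjusted p = 0.0817) and the miR-433 precursor by -0.27 (SE 0.24, adjusted p = 0.470). So of the 3 neighbours above the floor on all arrays, 0 passed between the treatments on the deposited scale. The shares given are over all probes, so they are no match for this count of 3. With array medians set to 0, 0 of the 13 neighbours passed higher and 6 lower.

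Against control, the miR-433 precursor was the 1 of 13 neighbours that passed over all treated groups. It read 7.95 ± 1.03 with POL6326 and 8.22 ± 0.41 with SDF-1α (SD, n = 12 each), and 6.20 ± 1.11 in control (SD, n = 3), a rise of 1.89 on the log2 scale (SE 0.36, adjusted p = 0.00572). Of all probes, 1.03% passed higher in this comparison. Without control array 1, 0 of 13 passed higher (adjusted p of the miR-433 precursor 0.0643). The miR-433 precursor also changed over time within POL6326 (adjusted p = 0.0114), as did the miR-431 precursor (adjusted p = 0.0104) and miR-493, so 3 of 13 passed where 13.6% of all probes did. Within SDF-1α the miR-431 precursor changed (adjusted p = 0.0184) and was the 1 of 13 neighbours to do so, where 5.68% of all probes did. In the treatment by time interaction 1 of 13 neighbours passed (miR-493), against 3.88% of all probes. With the count of above-floor probes in the model, neither precursor passed within POL6326 (adjusted p = 0.266 for miR-433 and 0.481 for miR-431), and the miR-431 precursor did not within SDF-1α (adjusted p = 0.0535), nor did it there with quantile normalization or without probes mostly at the floor (highest adjusted p 0.301). They were also lost without POL6326 4 h array 1 (both, in POL6326), without POL6326 4 h array 2 (miR-431), and without SDF-1α 8 h array 1 or 2 (miR-431, in SDF-1α). miR-337-3p, above the floor on 18 of 27 arrays, miR-127-3p, on 9, and the miR-370 precursor, on 12, did not pass between the treatments (adjusted p = 0.840, 0.256 and 0.777). The other 5 neighbour probes (miR-431, miR-431*, miR-432*, miR-433 and miR-493*) were above the floor on 1 to 5 arrays.

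In the whole DLK1-DIO3 domain, without miR-136, 79 probes were on the array, and 5 passed higher and 1 lower between POL6326 and SDF-1α, against 5.43% and 4.39% of all probes, with a median of -0.03. The share passing higher was near that of all probes, and the share passing lower (1 of 79) was below it. With array medians set to 0 the counts were 4 higher and 33 lower of 79, against 44 and 266 of 774. Above the floor on all arrays were 15 of them, whose log2 differences ran from -0.65 to 1.16 with a median of -0.15. The shares above are over all 774 probes, 99 of them at the floor on all arrays, so they are no match for these 15. The 2 of these past the threshold were miR-494 (1.16, SE 0.27, adjusted p = 0.00970) and miR-496 (1.14, SE 0.30, adjusted p = 0.0194), and miR-494 was lost with the above-floor count in the model (adjusted p = 0.103). Against the control, miR-494 stood at 0.22 with POL6326 and -0.94 with SDF-1α, and miR-496 at 1.68 and 0.54.

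**Figure D5:**
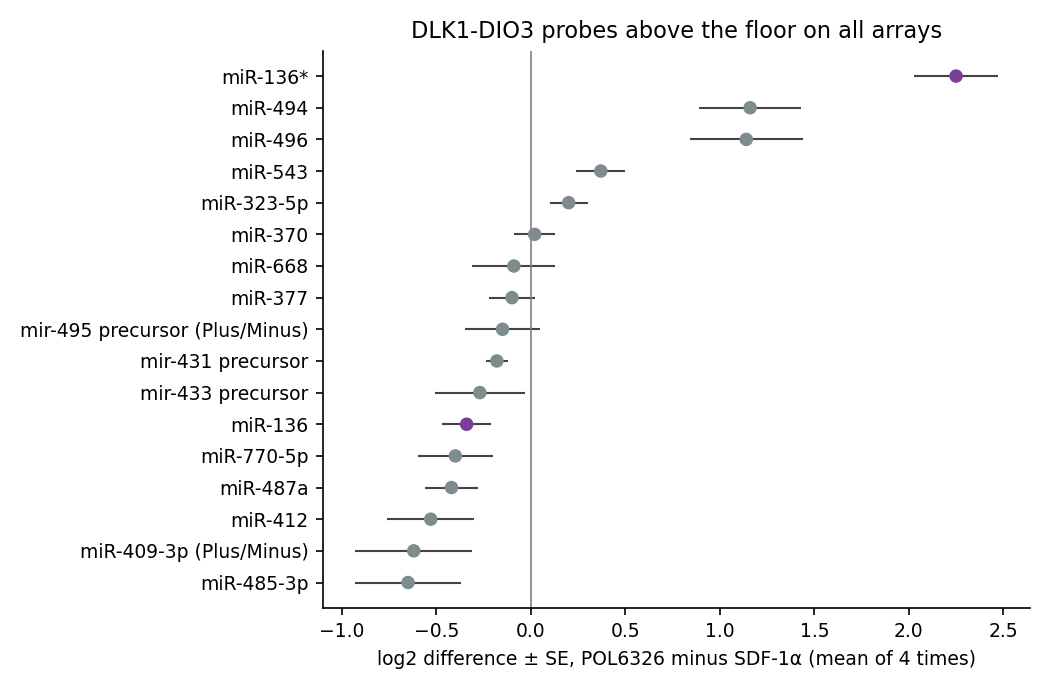
Log2 difference ± SE, POL6326 minus SDF-1α over 4 times (x axis), of the 17 DLK1-DIO3 probes above the floor on all arrays (y axis, sorted), with both miR-136 arms in purple. miR-136* is at 2.25, the next probes, miR-494 and miR-496, are at 1.16 and 1.14, and miR-136 is at -0.34.

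The probes whose signals followed miR-136* most closely were ranked by Pearson's r over the 27 arrays among 172 other probes above the floor on all arrays. The first was miR-92a, at r = 0.85 (rho 0.80, and 0.81 without the 2 arrays farthest from the median of miR-136*). miR-92a followed miR-136* within SDF-1α (r = 0.91), within POL6326 (r = 0.61, n = 12 each) and in the deviations of arrays from their group means (r = 0.82). Its own log2 difference, POL6326 minus SDF-1α, was smaller, at 0.70. Next came the Plus/Minus probe of miR-138-1* (r = 0.69), miR-638 (0.60), miR-543 (0.59) and the miR-566 precursor (0.57). In the deviations from group means the miR-138-1* probe had an r of 0.21 and miR-638 one of 0.09. For miR-543, a DLK1-DIO3 member, it was 0.57. The lowest r was that of miR-572 (-0.73), which was -0.16 in the deviations.

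For miR-136 the closest probes were miR-532-3p (r = 0.82), the miR-631 precursor (0.78), miR-424 (0.77), miR-326 (0.76) and miR-560 (0.75). Each of these 5 had a negative r to the number of above-floor probes, between -0.86 and -0.52. Without the 2 arrays farthest from the median of miR-136, r was between 0.56 and 0.70. None of them was among the 5 closest to miR-136*. These likenesses are over arrays that share treatments and come from 1 table, and they are given without a test.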

How the data were processed

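Per the labels' protocols, biotin was built into cDNA of total RNA by random-ended priming before hybridisation. They describe no step separating mature miRNAs from longer RNA. The authors deposited 1 table of log2 signals for 784 probes, 10 of them control probes left out here. Scanner software, background correction, normalization and genome build were not given in the sources used here. All 27 columns have 1 maximum, and 38 probes carry the mark Plus/Minus, whose meaning is not given. No further scaling of the deposited log2 values was made.

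The floor is an array's most frequent value (tolerance 1e-04). One mean for each of 9 groups was fitted to all 774 miRNA probes with limma 3.58.1 in R 4.3.3 (prior degrees of freedom 0.90), with two-sided p-values, Benjamini-Hochberg adjustment across all 774 probes of a comparison and a threshold of 0.05. With 3 arrays against 3 the smallest exact permutation p is 0.1, so calls rest on this pooled model. Precision is limited by how many arrays there are. The script was tested on simulated data with the same spread for every probe and no tied floor, which is unlike these arrays. Members, lists and tests were chosen with earlier results of these data known. Named probes are the members, probes of the listed genes near MIR136, the 5 probes with the highest r to each member and the 3 widest other arm pairs.

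Alternatives were median centring, quantile normalization, dropping probes tied at the floor on more than 50% of arrays, a robust prior with trend, a replicate block, treated arrays only, and leaving out each array. Added after seeing the data were centring on the 174 probes above the floor on all arrays, each array's count of above-floor probes as a covariate, and fitting those 174 probes only.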

Additional observations from a re-analysis of the deposited data

Results flagged for a closer look

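Among the named probes other than the 2 members, 1 had a difference between POL6326 and SDF-1α that itself differed between the times. Of all 774 probes 3.88% had this, and there were 31 named probes with the members, so the count is no larger than over all probes. Some of the named probes were chosen for their likeness to the members in these same data. miR-493, from the gene cluster of miR-136, had an interaction adjusted p of 0.00962 by limma's moderated F-test, with log2 differences of -0.07, 0.01, 1.56 and 0.03 at 1, 2, 4 and 8 h. It was above the floor on 6 of 27 arrays, which ties these sizes to the floor, and the POL6326 4 h arrays had 482 to 593 probes above the floor.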

How the results depend on the processing

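The log2 difference of miR-136* between POL6326 and SDF-1α over 4 times ran from 2.11 to 2.29 over 9 alternatives and from 2.10 to 2.38 with 1 array left out. That of miR-136 ran from -0.48 to -0.13 and from -0.40 to -0.27. No result of either member reversed a call. With each array's count of above-floor probes as a covariate, the miR-136 difference was 0.26 at 1 h and -0.34 at 4 h, and the adjusted p of miR-136* over time in SDF-1α was 0.0856. With median centring, miR-136 differed by -0.59 at 8 h and by -0.94 from 2 h to 4 h of POL6326, and its adjusted p over time in POL6326 was 0.0181. With only the probes above the floor on all arrays, the 4 h minus 2 h steps passed for miR-136* in SDF-1α (1.76, adjusted p = 0.0462) and for miR-136 in POL6326 (-0.68, adjusted p = 0.0375), where fewer probes are tested. With 1 array left out, the 8 h difference of miR-136* ran from 2.01 to 2.94, its SDF-1α step from 2 h to 4 h from 1.63 to 1.85, its adjusted p over time in SDF-1α from 0.00276 to 0.0850, the POL6326 step of miR-136 from 2 h to 4 h from -0.91 to -0.42, and its adjusted p over time in POL6326 from 0.0490 to 0.460.

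Among the 13 neighbour probes, the count higher between the treatments was 1, and 0 with median centring, without probes tied at the floor on most arrays, with the covariate and with only the probes above the floor on all arrays. The count lower was 0, and 6 with median centring. The count higher over treated groups against control was 1, and 2 with quantile normalization and with centring on the probes above the floor on all arrays. With 1 array left out each of these 3 counts ran from 0 to 1.

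Arrays with the same replicate number did not deviate together: over 12 pairs of POL6326 and SDF-1α arrays r ran from -0.04 to 0.17, and 4 of 12 exceeded 0.1. With the replicate block miR-136* was 2.25 (SE 0.24) between the treatments, its adjusted p over time in SDF-1α was 0.0427, and no call of either member changed. The cause of the changes above was not tested.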
